A study of Homo sapiens with 6 samples.

Results

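The 10 genes described here encode receptors, ligands and direct targets of the Notch pathway: the receptors NOTCH1, NOTCH2 and NOTCH3, the ligands JAG1, JAG2 and DLL1, and the targets HES1, HES4, HEY1 and NRARP. They were chosen by gene name from the deposited tables, and all 10 were found among 57914 genes. RNA had been sequenced from A375 cells, an established human melanoma line grown in serum-containing medium, stained with Aldefluor, a substrate that becomes a retained fluorescent product in cells with aldehyde dehydrogenase (ALDH) activity. The ALDH_High group held the 5% of cells with the strongest signal and the ALDH_Low group the 5% with the weakest, with 3 libraries each. All 6 libraries came from the same line, with no genetic change or drug named in the labels, and the sort was on ALDH activity, not on any Notch protein.

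In Notch signalling a Jagged or Delta ligand on one cell binds a Notch receptor on its neighbour. ADAM10 and then gamma-secretase cut the receptor, and its intracellular domain enters the nucleus, where it joins the DNA-binding protein RBPJ and a Mastermind (MAML) co-activator and switches on HES and HEY genes, which encode transcriptional repressors. In the melanocyte lineage the pathway is known for maintaining melanoblasts and melanocyte stem cells, with HES1 as a main target.

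Total counts per library lay between 26692868 and 37830603. The lineage factor SOX10 was present in every library, at 585 to 809 CPM (counts per 1000000 on TMM-scaled library sizes) in ALDH_High and 174 to 210 CPM in ALDH_Low. S100B (32.2 ± 4.10 and 1.68 ± 1.33 CPM) and S100A1 (29.9 ± 3.40 and 1.14 ± 0.971 CPM) were also higher in ALDH_High, and MITF, the melanocyte master regulator, was lower (13.04 ± 0.944 and 24.7 ± 6.62 CPM; SD, n = 3; edgeR adjusted p 0.00667). PMEL, MLANA, TYR, TYRP1 and DCT stayed below 1 TPM (transcripts per 1000000, corrected for length) in all 6 libraries. Of 8 white blood cell markers 6 were below 1 TPM in all libraries, with PTPRC at no more than 0.144 CPM; the summed level was 14.6 to 27.1 TPM in ALDH_High and 50.2 to 63.2 TPM in ALDH_Low. Most of that sum was CD68 (15.7 ± 4.32 and 55.8 ± 7.52 TPM), a lysosomal protein, while LYZ went the other way (4.70 ± 2.61 and 1.47 ± 0.425 TPM; SD, n = 3). Of 7 endothelial markers 6 were below 1 TPM in all libraries, and the sum was 3.33 to 4.08 TPM in ALDH_High and 0.755 to 0.986 TPM in ALDH_Low, KDR being the exception. Of 7 markers each, the fibroblast sum was 9.65 to 12.3 against 6.26 to 7.91 TPM and the keratinocyte sum 98.5 to 132 against 99.6 to 124 TPM. Most of the keratinocyte sum was KRT10 (95.6 ± 13.2 and 100.1 ± 11.8 TPM; edgeR adjusted p 0.693). KRT14 was at 18.9 ± 3.45 and 12.2 ± 2.42 TPM (SD, n = 3; edgeR adjusted p 0.108). KRT5, at 2 to 6 counts in ALDH_High and 32 to 108 in ALDH_Low, was lower in ALDH_High (edgeR log2 fold change -3.63, adjusted p 0.000898). The part of these markers in the Notch results was not tested. In sorted bulk samples, fewer cells expressing a gene and less RNA per cell cannot be told apart.

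The RBPJ recognition letters stood in the promoters of the targets HES1 and HES4, and these are shown because no other member window held these letters. The windows run from 250 bases before to 50 bases after the annotated start (RefSeq, GRCh38.p14) and are written in the direction of transcription. The capitals mark the letters GTGGGAA. HES1 lies on the plus strand, at chr3:194135898-194136197, and HES4 on the minus strand, at chr1:1000048-1000347.
HES1: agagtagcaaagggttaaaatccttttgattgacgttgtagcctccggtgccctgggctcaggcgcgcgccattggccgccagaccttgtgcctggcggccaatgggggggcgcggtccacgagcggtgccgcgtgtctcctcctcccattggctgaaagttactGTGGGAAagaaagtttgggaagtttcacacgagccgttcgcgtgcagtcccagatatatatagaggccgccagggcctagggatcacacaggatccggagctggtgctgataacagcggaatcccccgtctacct
HES4: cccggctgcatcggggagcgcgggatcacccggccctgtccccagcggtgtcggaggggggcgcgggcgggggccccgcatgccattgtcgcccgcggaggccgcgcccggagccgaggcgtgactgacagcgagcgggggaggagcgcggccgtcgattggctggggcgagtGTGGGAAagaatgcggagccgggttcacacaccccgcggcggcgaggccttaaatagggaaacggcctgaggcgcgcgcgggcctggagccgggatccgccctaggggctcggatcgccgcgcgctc
The match begins at position -85 in HES1 and at position -77 in HES4, counted from the start. Among the 8 members with a window in the table, these were the 2 with a match to GTGGGAA or its reverse complement TTCCCAC. The same letters were found in 6.25% of the 35116 promoter windows of this length. CACNAG, letters of the N-box bound by HES proteins, or the reverse complement CTNGTG, occurred 4 times in the HES1 window, 2 times (overlapping) in that of NOTCH1 and 1 time each in those of NOTCH2, NOTCH3 and NRARP, with none in JAG1, JAG2 or HES4; 38% of all windows hold it. A match is a description of letters and not evidence of binding. DLL1 and HEY1 had no entry in the table.

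Of the 10 members, 9 were expressed highly enough to be tested. NOTCH1 and NOTCH3 were higher in ALDH_High, HES4 was lower, and NOTCH2, JAG1, JAG2, DLL1, HES1 and HEY1 did not pass (edgeR quasi-likelihood F-test, Benjamini-Hochberg adjusted p below 0.05 over 17047 genes). These 3 calls among 9 genes compare with 20.6% of all genes tested, 10.8% higher and 9.83% lower. Separate groups, without overlap, were seen in 4 of the 9 (NOTCH1, NOTCH3, JAG2 and HES4), against 37.8% of all genes tested. The median log2 fold change of the 9 was 0.54, and of all genes tested -0.013.

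**Figure D1:**
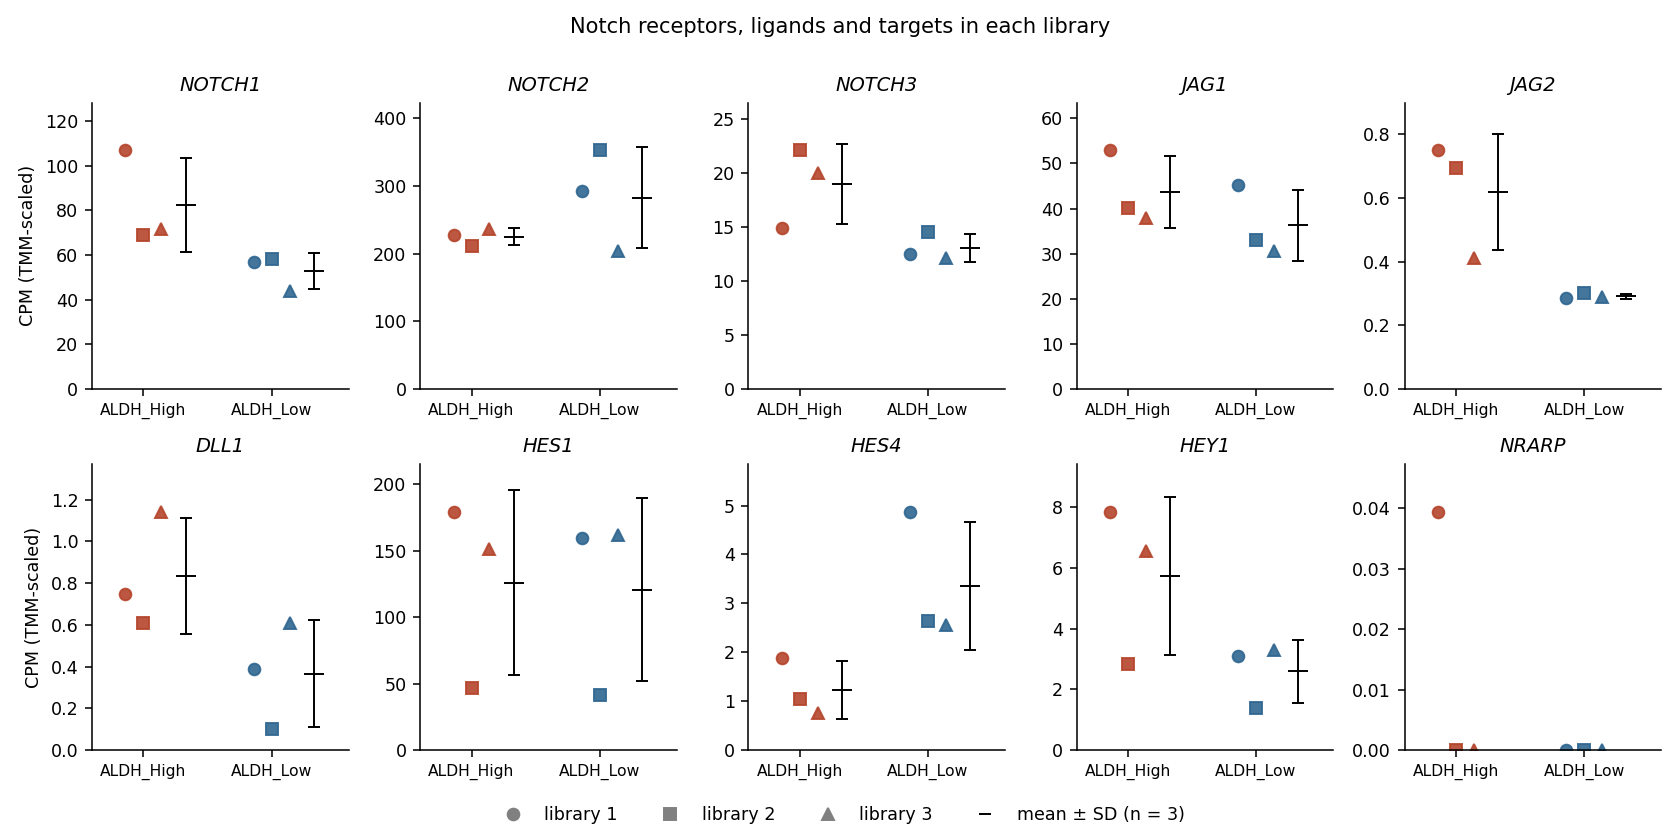
CPM of each member in each library (linear axes from 0, in TMM-scaled CPM); symbols give the library number and black bars the mean and SD of 3 libraries, not drawn for the untested NRARP. NOTCH1, NOTCH3 and JAG2 lie higher in all 3 ALDH_High libraries and HES4 lower, while HES1 and HEY1 are lowest in library 2 of both groups.

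NOTCH1 encodes the best-studied receptor of the family (ENSG00000148400, chromosome 9, 136494433 to 136546048, GRCh38). It stood at 107, 68.7 and 71.6 CPM in ALDH_High libraries 1, 2 and 3 and at 56.8, 58.0 and 43.8 CPM in ALDH_Low libraries 1, 2 and 3. The groups were separate, with ALDH_High library 1 furthest away. The means were 82.4 ± 21.2 and 52.8 ± 7.89 CPM (SD, n = 3), a log2 fold change of 0.64 (SE 0.18, edgeR adjusted p 0.0333), or 1.56-fold. For NOTCH1 the exact permutation p (two-sided) was 0.1, the smallest that 3 against 3 libraries allow. The call ended without ALDH_High library 1 (log2 fold change 0.42, edgeR adjusted p 0.0508), ALDH_Low library 1 (0.71, 0.0639), ALDH_Low library 2 (0.71, 0.0621) or ALDH_Low library 3 (0.52, 0.135), and in limma on TPM (0.61 and 0.67, adjusted p 0.0594 to 0.129).

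NOTCH3, a receptor best known from vascular smooth muscle (ENSG00000074181, chromosome 19, 15159038 to 15200995), was the least abundant of the 3 receptors. It stood at 14.9, 22.1 and 20.02 CPM in ALDH_High and at 12.5, 14.5 and 12.1 CPM in ALDH_Low. The groups did not overlap, but ALDH_High library 1 lay next to ALDH_Low library 2. The means were 19.0 ± 3.69 and 13.05 ± 1.29 CPM (SD, n = 3; edgeR log2 fold change 0.54 with SE 0.17, adjusted p 0.0499), 1.46-fold, just inside the threshold. Without ALDH_High library 1 it was 0.71 (edgeR adjusted p 0.00679), while the call ended when any other library was left out (0.44 without ALDH_High library 2, 0.52 without ALDH_High library 3, and 0.53, 0.63 and 0.49 without ALDH_Low libraries 1, 2 and 3, adjusted p 0.072 to 0.183). It ended too with upper-quartile factors (0.50, 0.0703), at least 10 counts in every library (0.55, 0.0529) and limma on TPM (0.44 to 0.56, 0.179 to 0.323).

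NOTCH2 was the most abundant receptor (ENSG00000134250, chromosome 1, 119911553 to 120100779). It stood at 227, 211 and 237 CPM in ALDH_High and at 292, 352 and 204 CPM in ALDH_Low. The ALDH_High libraries were close together, and ALDH_Low library 3 lay below all of them. The log2 fold change was -0.33 (SE 0.17, 95% interval -0.72 to 0.06, edgeR adjusted p 0.231), and without ALDH_Low library 3 it was -0.52 (edgeR adjusted p 0.031). NOTCH2NLA, a partial copy of NOTCH2 on the same chromosome, fell in ALDH_High, from 101 ± 11.5 to 60.02 ± 6.32 CPM (SD, n = 3; edgeR log2 fold change -0.76 with SE 0.13, adjusted p 0.00225). Reads of near-identical copies may be split between the pair, so both are uncertain; NOTCH2NLA also overlaps NBPF10 on the same strand. With their counts summed, an alternative chosen after seeing the data, the log2 fold change of NOTCH2 was -0.43 (edgeR adjusted p 0.0515). The remaining receptor, NOTCH4, was at 1.80 ± 0.594 and 2.14 ± 0.635 CPM (log2 fold change -0.26, edgeR adjusted p 0.655) and overlaps GPSM3 on the same strand.

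Because TPM is corrected for length, the receptors can be compared with each other. Their summed level was 45.9 ± 2.16 TPM in ALDH_High and 46.1 ± 11.0 TPM in ALDH_Low (SD, n = 3; exact permutation p = 0.9). Within that sum NOTCH2 made up 56.0%, 61.1% and 63.7% in ALDH_High libraries 1, 2 and 3 and 73.05%, 76.4% and 68.2% in ALDH_Low libraries 1, 2 and 3. NOTCH1 made up 33.6%, 25.4% and 24.6% in ALDH_High and 18.2%, 16.1% and 18.7% in ALDH_Low. The shares of NOTCH2 were thus lower and those of NOTCH1 higher in each ALDH_High library than in any ALDH_Low library, by -12.3 and 10.2 percentage points of the means (exact permutation p = 0.1 for each, the smallest possible). NOTCH3 held 8.58 ± 2.28% and 5.74 ± 0.867% (exact permutation p = 0.2, n = 3), and NOTCH4 3.27 ± 0.845% and 4.09 ± 2.12% (exact permutation p = 0.7, n = 3). Shares of one sum are not independent of each other.

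**Figure D2:**
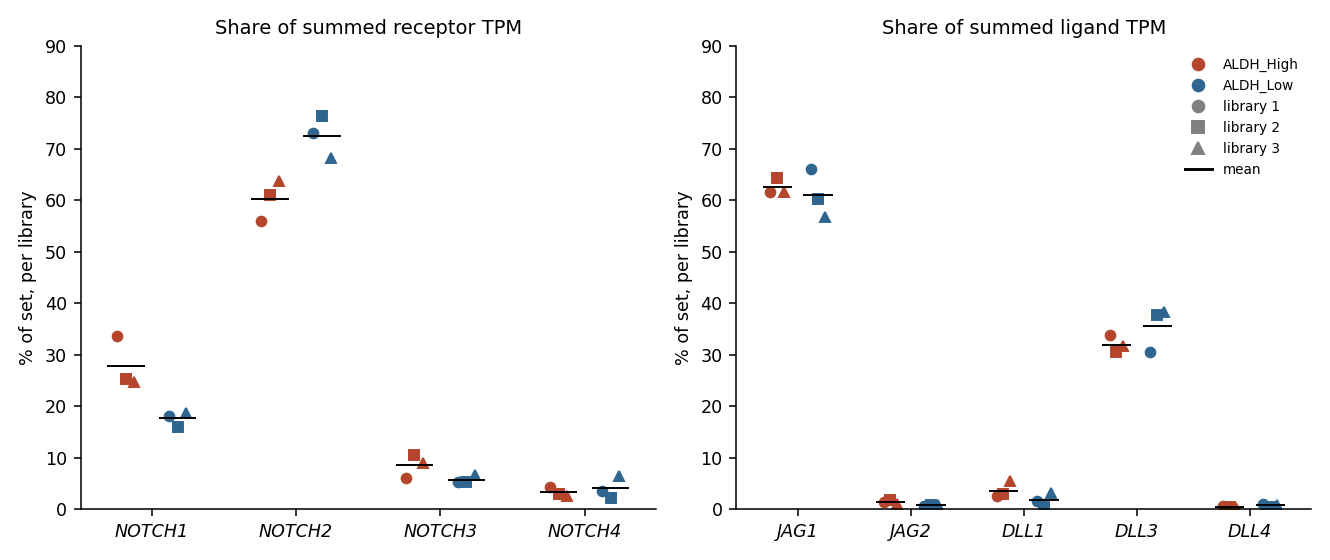
Share of each receptor in the summed TPM of NOTCH1 to NOTCH4 (left) and of each ligand in the summed TPM of the 5 canonical ligands (right), in percent per library; colours give the group, symbols the library number and black lines the mean of 3 libraries. NOTCH1 and NOTCH2 separate by group, whereas JAG1, at 56.8 to 66.1%, and DLL3, at 30.5 to 38.3%, do not.

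JAG1 was the most abundant ligand (ENSG00000101384, chromosome 20, 10637684 to 10673999). It stood at 52.9, 40.1 and 37.9 CPM in ALDH_High and at 45.3, 33.02 and 30.6 CPM in ALDH_Low. The groups overlapped, and library 1 was highest in both. The log2 fold change was 0.26 (SE 0.18, 95% interval -0.14 to 0.66, edgeR adjusted p 0.359). The 437 tested genes of chromosome 20 had a median of 0.26 (0.255 before rounding) and 74.6% of them were above 0; on the chromosomes of the other tested members the median lay between -0.05 and -0.006. The part of the chromosome in the value of JAG1 was not tested.

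The ligands JAG2 and DLL1 were near the limit of detection. JAG2 (ENSG00000184916, chromosome 14, 105140982 to 105168824) had 19, 24 and 14 counts in ALDH_High and 11, 9 and 8 in ALDH_Low. The groups did not overlap, at 0.618 ± 0.182 and 0.291 ± 0.00855 CPM (SD, n = 3; log2 fold change 1.07, SE 0.41, 95% interval 0.16 to 1.98, edgeR adjusted p 0.0971). DLL1 (ENSG00000198719, chromosome 6, 170282206 to 170306565) had 19, 21 and 39 counts in ALDH_High and 15, 3 and 17 in ALDH_Low. Its groups barely overlapped, ALDH_High library 2 at 0.608 and ALDH_Low library 3 at 0.611 CPM, and the log2 fold change was 1.19 (SE 0.54, 95% interval -0.025 to 2.40, edgeR adjusted p 0.163). DLL1 overlaps FAM120B on the opposite strand, which had 684 to 984 counts per library; the library kit keeps strand, but whether the counting used it is not given in the sources used here, so DLL1 is uncertain.

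DLL3, a Delta-family ligand known for acting inside the cell on receptors of its own cell, was the ligand next to JAG1 in level. It stood at 7.19 ± 1.80 and 6.64 ± 0.0421 CPM (SD, n = 3; edgeR log2 fold change 0.11 with SE 0.21, adjusted p 0.773). DLL4 had 3 to 15 counts per library and was not tested. The summed TPM of the 5 ligands was 18.7 ± 2.36 in ALDH_High and 15.4 ± 2.45 in ALDH_Low (SD, n = 3; exact permutation p = 0.3). JAG1 held 62.6 ± 1.58% and 61.07 ± 4.72% of it (exact permutation p = 0.7, n = 3) and DLL3 32.0 ± 1.68% and 35.6 ± 4.32% (exact permutation p = 0.3, n = 3).

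HES4 was the target that fell in ALDH_High (ENSG00000188290, chromosome 1, 998962 to 1000172). It stood at 1.89, 1.04 and 0.762 CPM in ALDH_High, from 48, 36 and 26 counts, and at 4.88, 2.64 and 2.55 CPM in ALDH_Low, from 188, 79 and 71 counts. Every ALDH_Low value lay above every ALDH_High value, and ALDH_Low library 1 was the highest of all. The means were 1.23 ± 0.589 and 3.36 ± 1.32 CPM (SD, n = 3; edgeR log2 fold change -1.47 with SE 0.40, adjusted p 0.0257), 2.77-fold lower. The call ended without ALDH_High library 2 (-1.35, edgeR adjusted p 0.0946), ALDH_High library 3 (-1.20, 0.0867) or ALDH_Low library 1 (-1.08, 0.115), and in limma on TPM without a filter (-1.21, 0.105).

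HES1 was the most abundant member, at 158 ± 83.9 TPM in ALDH_High and 147 ± 82.7 TPM in ALDH_Low (SD, n = 3; ENSG00000114315, chromosome 3, 194136148 to 194138732). It stood at 180, 47.1 and 152 CPM in ALDH_High libraries 1, 2 and 3 and at 160, 41.2 and 162 CPM in ALDH_Low libraries 1, 2 and 3. The groups overlapped over nearly their whole range, and library 2 was far below the others in each. The log2 fold change was 0.06 (SE 0.52, 95% interval -1.10 to 1.22, edgeR adjusted p 0.956), an interval that is wide in both directions. Its spread within groups (SD 1.09 on the log2 scale) was larger than in 99.3% of the tested genes that averaged 1 CPM or more. The value changed sign without ALDH_High library 1 (-0.27), ALDH_High library 3 (-0.08) or ALDH_Low library 2 (-0.35).

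HEY1, a target related to HES genes (ENSG00000164683, chromosome 8, 79762371 to 79767857), showed the same low library 2. It stood at 7.85, 2.84 and 6.54 CPM in ALDH_High and at 3.09, 1.41 and 3.31 CPM in ALDH_Low. ALDH_High library 2 lay inside the range of ALDH_Low, so the groups overlapped. The log2 fold change was 1.14 (SE 0.41, 95% interval 0.22 to 2.05, edgeR adjusted p 0.0807), and it passed without ALDH_High library 2 (1.48, edgeR adjusted p 0.0216), without a low-count filter (1.15, edgeR adjusted p 0.000699), in DESeq2 (1.16, adjusted p 0.0173) and with the replicate number as a block (1.12, edgeR adjusted p 0.00515). NRARP, whose protein restrains Notch signalling as feedback (ENSG00000198435, chromosome 9, 137299631 to 137302271), had 1 count in ALDH_High library 1 and 0 in the other 5, which allows up to 0.0793 to 0.107 counts per 1000000 in those 5 libraries (3 counts of the total); both groups were at the floor and no fold is given. These limits cover counting error only.

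In TPM, HES1 had the highest mean level in both groups, followed by NOTCH2 (27.7 ± 2.49 in ALDH_High and 33.7 ± 9.80 in ALDH_Low, SD, n = 3). In ALDH_High, NOTCH1 and JAG1 came next, then HEY1, NOTCH3 and HES4; in ALDH_Low, HES4 came next, then JAG1, NOTCH1, NOTCH3 and HEY1. NOTCH1 stood at 12.8 ± 2.40 and 8.04 ± 1.45 TPM and JAG1 at 11.7 ± 1.33 and 9.48 ± 2.26 TPM. NOTCH1 and JAG1 were within their spread of each other in both groups. HES4 (3.73 ± 1.5 and 10.03 ± 4.10 TPM), HEY1 (5.05 ± 2.15 and 2.22 ± 0.853 TPM) and NOTCH3 (3.92 ± 0.963 and 2.58 ± 0.321 TPM) were within their spread of each other in ALDH_High. In ALDH_Low HES4 stood above HEY1 and NOTCH3 in every library and was within its spread of JAG1 and NOTCH1. DLL1 (0.664 ± 0.242 and 0.273 ± 0.183 TPM) and JAG2 (0.254 ± 0.0670 and 0.118 ± 0.00776 TPM) were below 1 TPM throughout.

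The authors' deposited table gives coefficients for the high and the low group, each set against a group named 1A3. The difference of the 2 coefficients in the authors' deposited table was 0.66 for NOTCH1, 0.56 for NOTCH3, -0.31 for NOTCH2 and -1.44 for HES4. For HEY1 the authors' deposited table gives 0.55 for the high and -0.62 for the low group, and for HES1 -0.061 and -0.14.

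**Figure D3:**
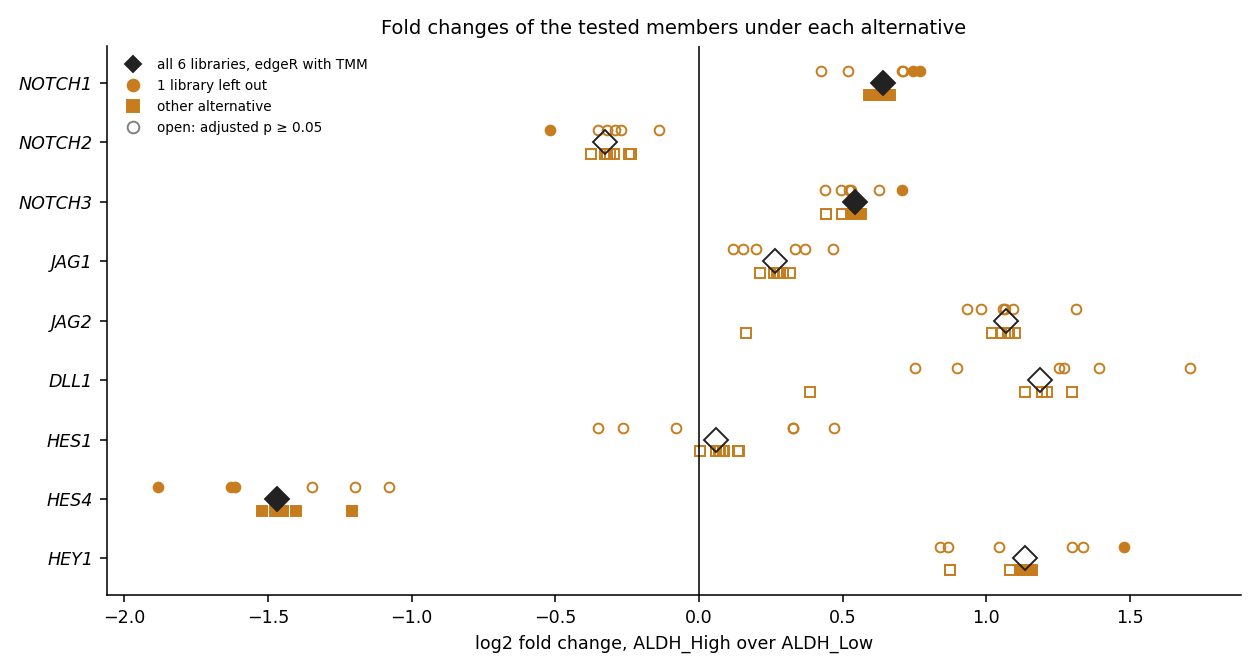
Log2 fold change (ALDH_High over ALDH_Low) of the 9 tested members with all 6 libraries (diamonds), with 1 library left out (circles) and under the other alternatives (squares); filled symbols have an adjusted p below 0.05. HES4, NOTCH1 and NOTCH3 keep their direction in all 15 alternatives and pass in 11, 8 and 5 of them, and HES1 lies on both sides of 0.

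Beyond the members, 96 names of the pathway were listed by role, 91 were in the tables and 83 were tested. Of these, 16 were higher and 9 lower in ALDH_High, which is 30.1% called beside 20.6% of all genes, and the median log2 fold change was 0.095. Of the 25 called genes, 14 passed whichever of the 6 libraries was left out: DNER, NOV, NOTCH2NLA, POFUT1, DTX1, NEURL1B, MAML3, TLE3, TLE2, HES6, HES7, HSPG2, SOX9 and MYC. How many of the 3513 called genes among all genes did the same was not counted, so this count has no background.

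**Figure D4:**
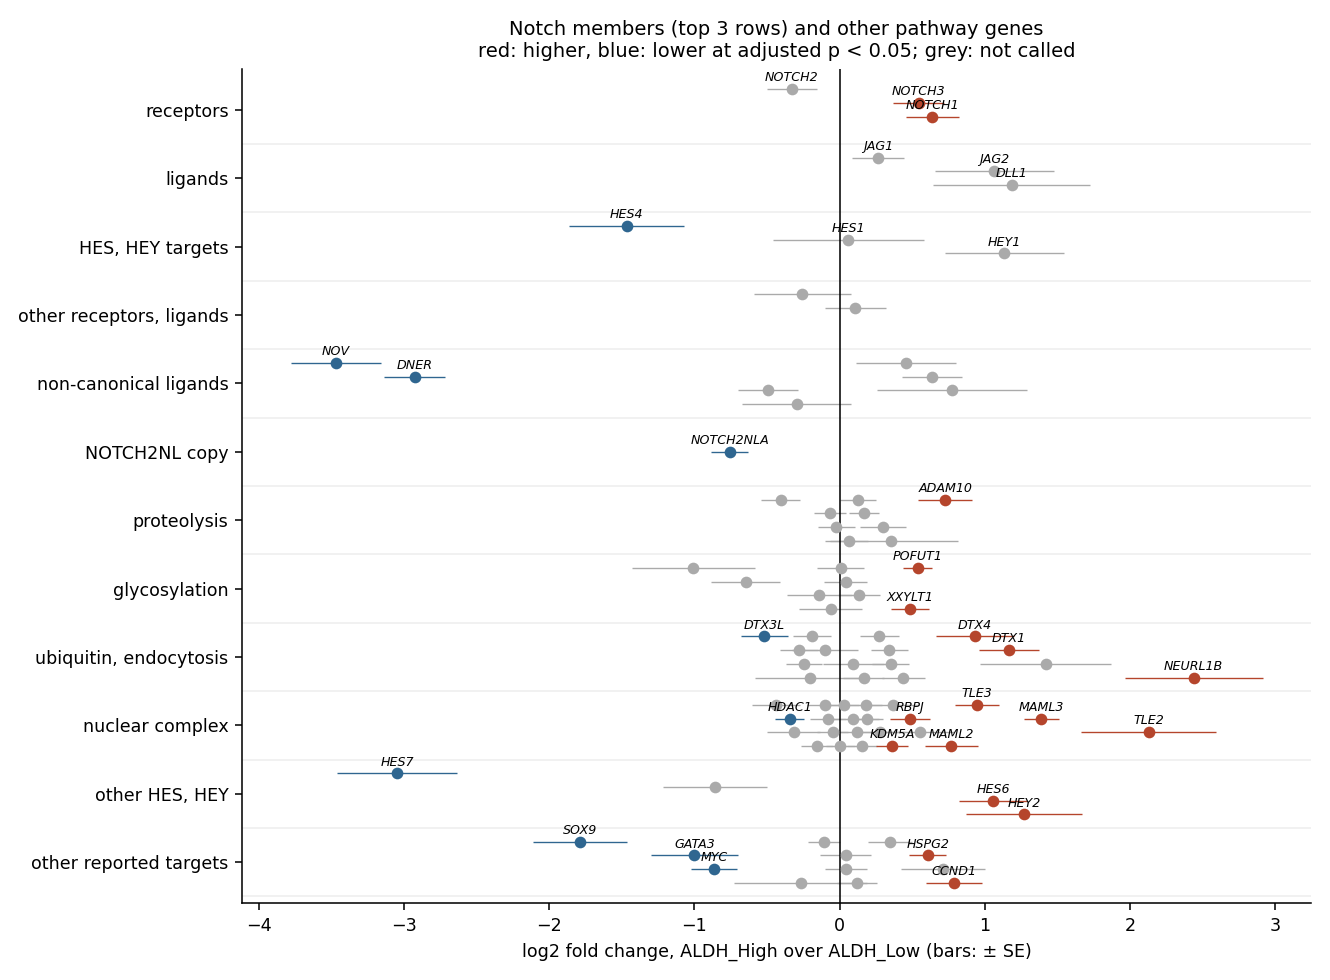
Log2 fold change (ALDH_High over ALDH_Low, with SE bars) of the 9 tested members, in the top 3 rows, and of 83 other pathway genes grouped by role; red is higher, blue lower and grey not called at an adjusted p below 0.05, and vertical position within a row only separates points. The largest falls are those of NOV (-3.47), HES7 (-3.05) and DNER (-2.93), and the largest rises those of NEURL1B (2.44) and TLE2 (2.13).

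Among 9 tested genes of receptor proteolysis 1 rose and 0 fell (11.1% called, beside 20.6% of all genes tested). ADAM10, the protease that makes the first ligand-induced cut, was at 126 ± 28.1 CPM in ALDH_High against 76.2 ± 15.7 CPM in ALDH_Low (SD, n = 3; edgeR log2 fold change 0.73 with SE 0.19, adjusted p 0.0193); the call ended without ALDH_High library 2 (0.55, 0.0756), ALDH_Low library 1 (0.71, 0.0676) or ALDH_Low library 3 (0.60, 0.0884). Among 9 tested glycosylation genes, whose enzymes add sugars to the receptor's extracellular repeats, 2 rose and 0 fell. That is 22.2% called, near the 20.6% of all genes tested. POFUT1, which adds fucose, was at 191 ± 5.76 and 132 ± 6.73 CPM (edgeR log2 fold change 0.54 with SE 0.10, adjusted p 0.00395), and it lies on chromosome 20. XXYLT1, which extends the glucose-linked sugar with xylose, had a log2 fold change of 0.49 (edgeR adjusted p 0.0248). The call of XXYLT1 ended without ALDH_High library 2 (0.51, 0.0678) or any 1 of ALDH_Low libraries 1, 2 and 3 (0.51, 0.52 and 0.44, adjusted p 0.0595 to 0.0896). The Fringe genes LFNG, MFNG and RFNG, whose enzymes tune which ligands a receptor answers to, did not pass, with log2 fold changes of -0.65, -1.01 and 0.0074.

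Among 16 tested genes of ubiquitin and endocytosis 3 rose and 1 fell (25.0% called, beside 20.6% of all genes tested). DTX1, a Deltex protein that binds the receptor's intracellular part and is itself a reported Notch target, was at 7.07 ± 1.09 and 3.13 ± 0.246 CPM (edgeR log2 fold change 1.17 with SE 0.21, adjusted p 0.00299). NEURL1B, a Neuralized-type ubiquitin ligase for ligands, was at 2.32 ± 1.08 and 0.411 ± 0.219 CPM (2.44, SE 0.48, edgeR adjusted p 0.00498). DTX4, another Deltex, had 0.93 (edgeR adjusted p 0.0324), and it passed with ALDH_Low library 1 left out but with no other library left out, where it ranged from 0.75 (without ALDH_Low library 3) to 1.05 (without ALDH_High library 2), adjusted p 0.0501 to 0.11. DTX3L was lower at -0.52 (edgeR adjusted p 0.0461), overlaps PARP9 on the opposite strand, and passed only without ALDH_Low library 3 among the leave-one-out fits; without ALDH_Low library 1 it was -0.36 (adjusted p 0.195). NUMB and NUMBL, endocytic inhibitors of the receptor, had -0.28 and -0.19 and did not pass.

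Among 23 tested genes of the nuclear complex and its co-repressors 6 rose and 1 fell (30.4% called, beside 20.6% of all genes). MAML3, a Mastermind co-activator, stood at 31.7, 33.8 and 31.1 CPM in ALDH_High and at 12.3, 12.7 and 11.9 CPM in ALDH_Low. These groups lay far apart with a small spread (edgeR log2 fold change 1.39 with SE 0.12, adjusted p 4.35e-05), a 2.62-fold difference. MAML3 overlaps MGST2 on the opposite strand, which had 111 to 206 counts per library. MAML2 was at 22.8 ± 3.81 and 13.3 ± 2.82 CPM (0.77, edgeR adjusted p 0.0150) and lost the call without ALDH_Low library 2 (0.65, 0.0637) or ALDH_Low library 3 (0.73, 0.0659), while MAML1 had 0.18 and did not pass. Of the Groucho-family co-repressors used by HES proteins, TLE2 (2.13, edgeR adjusted p 0.00944) and TLE3 (0.95, edgeR adjusted p 0.00158) rose, and TLE1 (-0.44) and TLE4 (-0.15) did not pass. TLE2 had 36 counts in ALDH_Low library 1 and 8 in each of the other ALDH_Low libraries, and its log2 fold change was 3.02 without library 1. HDAC1, a histone deacetylase of co-repressor complexes, was lower at -0.34 (edgeR adjusted p 0.0328) and passed only without ALDH_High library 1 among the leave-one-out fits, with -0.37 to -0.31 in the other 5.

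The other two of the 6, RBPJ and KDM5A, are named after their values were seen. RBPJ, the DNA-binding core, was at 90.2 ± 10.04 and 64.4 ± 9.99 CPM (edgeR log2 fold change 0.48 with SE 0.14, adjusted p 0.0331); the call ended without ALDH_High library 2 (0.53, 0.0661), ALDH_High library 3 (0.40, 0.109), ALDH_Low library 2 (0.43, 0.127) or ALDH_Low library 3 (0.41, 0.126). KDM5A, a histone demethylase that joins RBPJ repressor complexes, had 0.36 (edgeR adjusted p 0.0401), and it passed only without ALDH_High library 1 among those fits, with 0.30 to 0.42 in the other 5; it overlaps CCDC77 on the opposite strand.

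The other HES and HEY genes moved in both directions. Of 8, 4 were tested, 2 rose and 1 fell (75.0% called, beside 20.6% of all genes tested). HES3, HES5, HEYL and HELT were too low, with at most 13 counts in a library. HES6, which opposes HES1 in neural precursors, stood at 7.53, 5.99 and 4.78 CPM in ALDH_High and at 3.14, 2.58 and 3.06 CPM in ALDH_Low (edgeR log2 fold change 1.06 with SE 0.24, adjusted p 0.0102). HES7, the oscillating repressor of the somite clock, stood at 0.552, 0.261 and 0.586 CPM in ALDH_High and at 2.41, 5.29 and 3.88 CPM in ALDH_Low (-3.05, SE 0.41, edgeR adjusted p 0.000601). Neither pair of groups overlapped. HEY2, a repressor of heart and vessel development, was at 1.77 ± 0.898 and 0.727 ± 0.118 CPM (1.27, SE 0.40, edgeR adjusted p 0.0484) and passed only without ALDH_High library 2 among the leave-one-out fits, falling to 0.81 without ALDH_High library 1. HES2 had -0.86 (edgeR adjusted p 0.125), and -1.14 (0.0499) without ALDH_High library 1.

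Of 7 tested non-canonical ligands and modulators 0 rose and 2 fell (28.6% called, beside 20.6% of all genes tested). These 2 were among the largest changes of the pathway. DNER, a transmembrane protein of neurons reported to bind Notch, stood at 2.29, 1.48 and 2.20 CPM in ALDH_High and at 14.9, 15.9 and 14.5 CPM in ALDH_Low (edgeR log2 fold change -2.93 with SE 0.21, adjusted p 1.49e-05). CCN3, named NOV in the tables, a secreted matricellular protein reported to bind NOTCH1, stood at 5.09, 3.07 and 2.52 CPM in ALDH_High and at 54.0, 35.2 and 27.8 CPM in ALDH_Low (-3.47, SE 0.31, edgeR adjusted p 4.71e-05). Both were lower in every ALDH_High library by a wide margin. EGFL7 (0.63), MFAP2 (-0.49), MFAP5 (0.78), CNTN1 (0.46) and DLK2 (-0.30) did not pass, and DLK1 was not tested.

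Of 12 tested genes listed as other reported Notch targets 2 rose and 3 fell (41.7% called, beside 20.6% of all genes tested). This list leaves out DTX1, which rose, and the HES and HEY genes, as they are counted above. HSPG2, which encodes the basement membrane protein perlecan, had a log2 fold change of 0.61 (SE 0.13, edgeR adjusted p 0.00761). CCND1, the cyclin D1 gene, was at 627 ± 177 and 363 ± 36.4 CPM (0.79, SE 0.19, edgeR adjusted p 0.0160); it overlaps LTO1 on the opposite strand and lost the call without ALDH_High library 2 (0.64, 0.0626), ALDH_Low library 1 (0.77, 0.0559) or ALDH_Low library 3 (0.74, 0.0761). SOX9, a transcription factor of neural crest and cartilage, was at 4.82 ± 0.989 and 16.6 ± 8.41 CPM (-1.79, SE 0.33, edgeR adjusted p 0.00344). MYC, a growth-promoting transcription factor, was at 37.1 ± 2.14 and 67.6 ± 14.5 CPM (-0.86, SE 0.16, edgeR adjusted p 0.00374). GATA3, a transcription factor downstream of Notch in T cells, had -1.0 (edgeR adjusted p 0.0396) and passed only without ALDH_Low library 3 among the leave-one-out fits, with -0.77 without ALDH_Low library 1. All SD values of the pathway genes are over n = 3 libraries per group.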

How the data were processed

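RNA was sequenced from 3 ALDH_High and 3 ALDH_Low libraries of A375 cells. The submitters' processing notes name FastQC 0.11.3, STAR 2.5.1b, HTSeq 0.6.1, DESeq2 and GRCh38, with no role given. The authors deposited whole-number counts for 57914 genes, treated here as estimated counts because in each library 133 to 177 genes had a count of 0 beside a TPM above 0; whether both tables came from 1 tool is not given in the sources used here. The authors also deposited TPM values, which sum to 1000000 per library, and log2 coefficients, per the file headers from a DESeq2 model of 5 groups, in which 226 rows with shifted cells were left out. Rows without a gene name (261, 0.0213% to 0.0267% of counts) carry an Ensembl identifier and stayed in.

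Genes were kept with filterByExpr and tested with edgeR 4.0.16 (TMM, glmQLFit and glmQLFTest, no block, 17047 genes). The SE was taken as the size of the fold change (log2) over the root of the F statistic, and 95% intervals use the fit's degrees of freedom and are not adjusted. Single values were compared by exact two-sided permutation (smallest p 0.1). Nothing in the labels says that libraries came from separate cultures, so p-values measure the spread between these libraries. Positions come from GENCODE 44 (GRCh38). The fit was checked on simulated counts, with changes placed in genes averaging 5 CPM or more. At a true log2 change of 1, 91 of 100 changed genes were called, and at 2, 100 of 100. A further 18 unchanged genes were called as well. JAG2, DLL1, HES4 and HEY1 averaged below 5 CPM, and changes smaller than 1 were not simulated. The recovery therefore does not cover those members or changes of the size seen in NOTCH1 and NOTCH3.

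Members and lists were chosen with earlier results of these data known. Named genes are the members, up to 4 genes per direction and list with the smallest p among those called, and the other receptors, ligands, HES and HEY genes. Sequences were to be shown for 6 members; those of NOTCH1, NOTCH2, JAG1 and JAG2 held no match to the RBPJ letters and are given by counts. Alternatives were DESeq2 size factors, upper-quartile factors, no filter, at least 10 counts in every library, a replicate block, each library left out, DESeq2 1.42.0, an adjusted p below 0.01, for shares CPM per kb of annotated exon, and limma 3.58.1 on log2(TPM + 1) or log2(TPM + 0.1), for a mean TPM of at least 1 or, with pseudocount 1, all genes.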

Additional observations from a re-analysis of the deposited data

How the results depend on the processing

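All 9 tested members except HES1 kept their direction in each alternative that gave a value. Members called higher (2) numbered 1 with at least 10 counts in every library and with upper-quartile factors, and 0 in the 3 limma fits and at an adjusted p below 0.01, but 3, with HEY1 added, in DESeq2, without a low-count filter and with the replicate block; leaving out a library gave 0 to 2. Members called lower (1) numbered 0 in limma without a TPM filter and at an adjusted p below 0.01, and 0 to 2 with a library left out. Pathway genes called higher (16) numbered 10 in limma with pseudocount 1 or 0.1, 8 without a TPM filter, 7 at 0.01, and 8 to 17 with a library left out; called lower (9), they numbered 5 without a TPM filter and 6 to 13 with a library left out. Of all genes, 1155 higher and 851 lower were called in limma without a TPM filter, 1047 and 1051 lower in limma with pseudocounts 1 and 0.1, and 1060 higher and 870 lower at 0.01; with a library left out, 1306 to 2172 higher and 1073 (without ALDH_High library 2) to 2049 lower. An adjusted p below 0.01 is stricter by construction; otherwise the cause was not tested. HES1 changed sign without ALDH_High library 1 (-0.27), ALDH_High library 3 (-0.081) or ALDH_Low library 2 (-0.35), and ranged from -0.35 to 0.47 with a library left out; DLL3 changed sign without ALDH_High library 1, with a range of -0.095 to 0.23. The differences in receptor and ligand shares moved by less than the SD pooled over both groups under each alternative, but without ALDH_Low library 3 that of JAG1 changed sign (1.53 to -0.629 percentage points), as did that of NOTCH4 (-0.815 to 0.354). No alternative for the shares took in NOTCH2NLA.

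With the replicate number as a block, NOTCH1 (log2 fold change 0.62, edgeR adjusted p 0.0146), NOTCH3 (0.53, 0.0347) and HES4 (-1.47, 0.00362) passed, as did HEY1 (1.12, 0.00515); HES1 was at 0.09 (0.673). HDAC1, HEY2 and KDM5A missed the threshold (adjusted p 0.0603, 0.0565 and 0.065). Libraries of equal number deviated together only weakly (correlations 0.15, 0.076 and 0.11) and were not treated as pairs, although each library correlated best with its own number. Counts of 3 to 39 per library limit JAG2, DLL1 and DLL4.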

Other observations

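HES1 was low in library 2 of both groups, a pattern noticed after the values were seen. On the log2 scale, library 2 differed from the mean of libraries 1 and 3 by -1.81 in ALDH_High and -1.96 in ALDH_Low. The same difference was taken in each group for the 11030 tested genes averaging 5 CPM or more. In library 2, 4 of them were at least 2-fold lower in both groups and 3 at least 2-fold higher. This does not require a 2-fold difference from library 1 and library 3 each. The 4 lower genes were HSPA6, HES1, SAT1 and FANCB, named after their values were seen. HSPA6, a strictly inducible heat shock protein, stood at 39.8, 4.98 and 8.71 CPM in ALDH_High and at 28.2, 2.68 and 13.5 CPM in ALDH_Low. SAT1, an enzyme of polyamine breakdown, stood at 50.05, 27.1 and 74.6 CPM in ALDH_High and at 51.0, 18.7 and 47.5 CPM in ALDH_Low. FANCB, a DNA repair protein, stood at 21.1, 11.6 and 25.9 CPM in ALDH_High and at 13.7, 4.15 and 8.73 CPM in ALDH_Low. HEY1, below 5 CPM on average, differed in library 2 by -1.33 and -1.18, and DLL1, at 3 to 39 counts per library, by -0.60 and -2.17, whereas HES4 differed by -0.20 and -0.42 and JAG1 by -0.16 and -0.17. What the library numbers stand for is not given in the labels.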
